A study of Mus musculus with 6 samples.

Results

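The triad is the junction in skeletal muscle where a transverse tubule, an inward fold of the surface membrane, meets the terminal sacs of the sarcoplasmic reticulum. The genes described here encode 10 of its proteins: Ryr1, Ryr3, Cacna1s, Cacnb1, Cacna2d1, Cacng1, Jph1, Jph2, Trdn and Stac3. They were found by exact gene symbol in GEO's annotation of the array, and probe sets with several symbols were left out. All 10 were present, as 10 of 20416 genes and 373 of 241576 probe sets.

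The 6 arrays hold RNA of C2C12, an established line of mouse myoblasts whose cells fuse into multinucleate myotubes. Per the labels, cells grew in 10% fetal bovine serum, were moved to 2% horse serum to differentiate, and were used as myotubes at days 4 to 7. The 3 insulin samples had been kept in 100 nM insulin for 48 h to make them insulin resistant, and the 3 control samples were untreated. The labels give medium changes every 24 h for both groups and call the samples of a group biological replicates. Nothing more is said of how the replicates were separated, so p-values measure the spread between these samples.

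In excitation-contraction coupling, depolarization of the tubule moves the voltage sensor, a dihydropyridine receptor built from the Cacna1s, Cacnb1, Cacna2d1 and Cacng1 products. In skeletal muscle this sensor is coupled mechanically to the calcium release channel RYR1 in the facing reticulum, and calcium leaves the store. Junctophilins hold both membranes together, triadin binds the release channel on its store side, and STAC3 is an adaptor that the coupling of the sensor needs.

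Of the 10 triad genes, 8 were lower after insulin in limma's fit over all genes (Benjamini-Hochberg adjusted p under 0.05) and none was higher. Among all 14291 tested genes 6.35% were lower and 9.56% higher. The falls were modest, with insulin levels between 68.5% and 83.3% of control. By estimate the voltage sensor subunits Cacna1s and Cacnb1 fell most, and Stac3 and Trdn did not pass. The median change of the 10 genes was -0.36 on the log2 scale, against -0.0028 over all tested genes. In 9 of the 10, all 3 insulin arrays lay below all 3 controls, while 15.7% of the tested genes had that order; the change itself was below 0 in 9 of 10, against 50.6% overall. The count fell to 6 without control 1, 4 without control 2, insulin 1 or insulin 3, and 3 without insulin 2. It was 5 with no filter on dim genes. The share of all genes called lower fell as well, to 5.79% without control 1 and 3.00% without control 2. That share was 3.23%, 2.67% and 2.83% without insulin 1, 2 and 3, and 3.09% with no filter. The gene values are RMA log2 signals set relative to the array's other transcripts, so fewer myotubes and less RNA per myotube cannot be told apart.

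**Figure D1:**
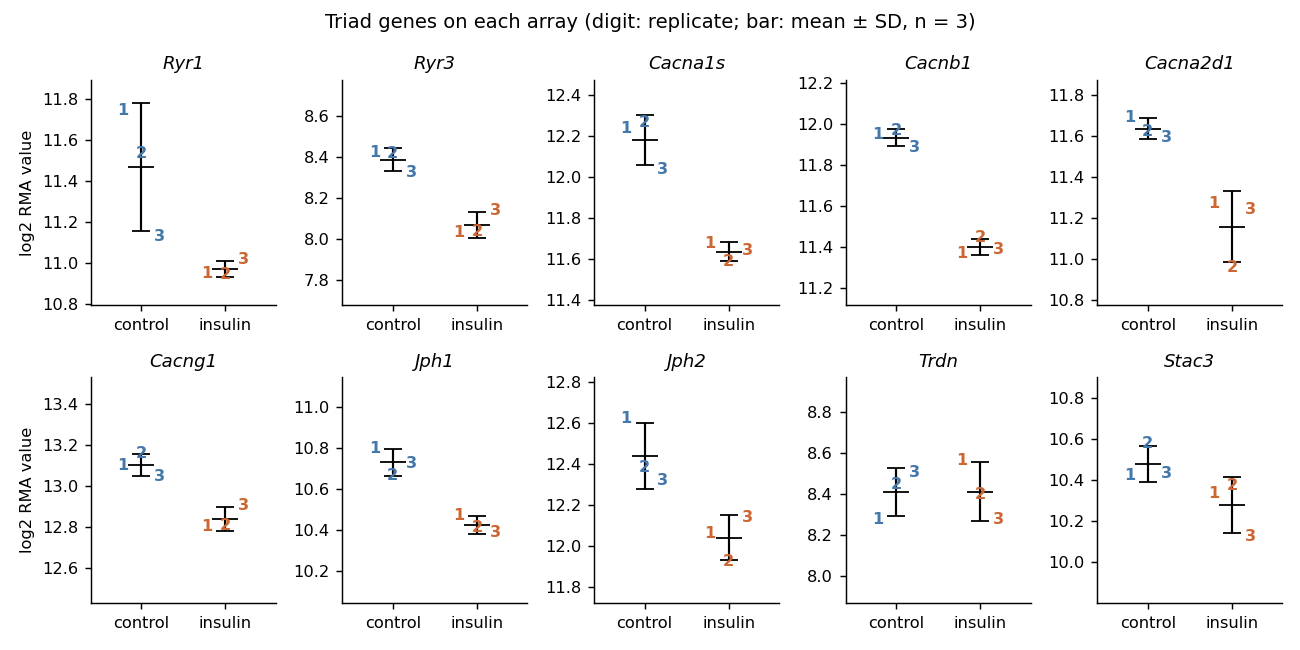
Gene values on the log2 RMA scale (vertical axis, spanning 1.1 units in every panel) for the 3 control and 3 insulin arrays, with digits for the replicate number and bars for mean ± SD (n = 3). All insulin arrays lie below all controls in every panel but that of Trdn.

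The pore-forming subunit of the voltage sensor, Cacna1s, carries the charges that sense the tubule's depolarization. Its log2 value was 12.24, 12.26 and 12.04 on control arrays 1, 2 and 3 and 11.68, 11.58 and 11.64 on insulin arrays 1, 2 and 3. The groups were 0.36 apart at their closest. Cacna1s fell by 0.54 ± 0.08 (SE, n = 3 each; limma adjusted p = 0.00407), to 68.5% of control.

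The beta subunit gene Cacnb1, whose protein binds the pore subunit in the cytoplasm and is needed for its transport to the junction, had the smallest p of the 10. Its values were 11.95, 11.97 and 11.89 in controls and 11.37, 11.45 and 11.39 after insulin. Each group spread little beside the gap of 0.44 between them. Cacnb1 fell by 0.53 ± 0.06 (SE; limma adjusted p = 0.00192), to 69.1% of control.

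Cacna2d1 encodes the alpha2-delta subunit, a largely extracellular protein that takes part in channel trafficking. It read 11.69, 11.63 and 11.60 in controls and 11.27, 10.96 and 11.24 after insulin. The groups did not overlap, and insulin array 2 lay lowest. Cacna2d1 fell by 0.48 ± 0.09 (SE; limma adjusted p = 0.0129), to 71.8% of control. When only the brightest of its probe sets was read, Cacna2d1 was at -0.19 (limma adjusted p = 0.187) and no longer called lower.

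The gamma subunit gene Cacng1, whose product is found mainly in skeletal muscle channels, changed least of the subunits. Its values were 13.10, 13.16 and 13.05 in controls and 12.80, 12.81 and 12.91 after insulin, groups that stood 0.14 apart. Cacng1 fell by 0.26 ± 0.07 (SE; limma adjusted p = 0.0325). The call was lost without control 1 (adjusted p = 0.0533), control 2 (0.117), insulin 1 (0.107), insulin 2 (0.116) or insulin 3 (0.0622), with changes from -0.30 to -0.24. Reading only the brightest probe set (-0.15, limma adjusted p = 0.163) ended it too. Within arrays, Cacng1 minus Cacna1s was higher after insulin by 0.28 (SDs of 0.077 and 0.070, n = 3), and the arrays did not overlap. The two-sided exact permutation p of that difference was 0.1, the smallest that 3 against 3 arrays allow (0.35 adjusted over 7 such pairs). For Cacnb1 minus Cacna1s the difference was 0.011 and the groups overlapped (exact p = 0.9).

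Ryr1, the calcium release channel of skeletal muscle, was uneven among the controls. It read 11.74, 11.54 and 11.13 on control arrays 1, 2 and 3 but 10.95, 10.95 and 11.02 after insulin. Control 3 lay 0.11 above the nearest insulin array, while control 1 lay far above both. Ryr1 fell by 0.50 ± 0.14 (SE), to 70.7% of control, and its limma adjusted p of 0.0472 was the closest to the threshold. The call was lost without any one array other than control 3; without control 1 the change was -0.36 (adjusted p = 0.0867). Without control 3 it was -0.67 (adjusted p = 0.00401). With the brightest probe set (-0.35, adjusted p = 0.158) or the brighter part of its probe sets (-0.38, adjusted p = 0.0540) Ryr1 did not pass either.

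Ryr3, a release channel of developing and certain adult muscles that is thought to amplify release, was lower as well. Its values were 8.43, 8.42 and 8.33 in controls and 8.03, 8.04 and 8.14 after insulin. The groups were 0.18 apart. Ryr3 fell by 0.32 ± 0.07 (SE; limma adjusted p = 0.0174), to 80.2% of control. It did not pass without control 2 (adjusted p = 0.0674), insulin 1 (0.0672) or insulin 2 (0.0735), at changes of -0.30. Whether both channels changed alike could not be resolved: Ryr3 minus Ryr1 moved by 0.18, against control and insulin SDs of 0.26 and 0.023 (n = 3, exact permutation p = 0.4). The Ryr2 gene of the cardiac channel, which is no triad gene of this list, changed by -0.031 ± 0.068 (SE; limma adjusted p = 0.807).

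Both junctophilin genes were lower. Jph1, whose protein is the main skeletal tether, read 10.80, 10.67 and 10.72 in controls and 10.47, 10.41 and 10.39 after insulin. It fell by 0.31 ± 0.07 (SE; limma adjusted p = 0.0192), to 80.9% of control, and did not pass without insulin 2 (-0.30, adjusted p = 0.0748) or insulin 3 (-0.29, 0.0772). Jph2, the junctophilin that heart and skeletal muscle share, read 12.62, 12.38 and 12.32 in controls and 12.06, 11.92 and 12.14 after insulin. It fell by 0.40 ± 0.10 (SE; limma adjusted p = 0.0294), and neither gene's groups overlapped. The Jph2 call was lost without control 2 (adjusted p = 0.0662), insulin 1 (0.0814), insulin 2 (0.107) or insulin 3 (0.0602), with changes from -0.45 to -0.34, and with its brightest probe set (-0.24, adjusted p = 0.0747). Jph2 minus Jph1 moved by -0.094, less than its control SD of 0.11 and insulin SD of 0.12 (n = 3, exact permutation p = 0.4).

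Stac3, the adaptor of the voltage sensor, read 10.43, 10.58 and 10.43 in controls and 10.34, 10.38 and 10.12 after insulin. The groups came within 0.048 of each other without overlapping. The change of -0.20 ± 0.09 (SE) did not pass (limma adjusted p = 0.170), and its 95% interval ran from -0.40 to 0.0016. Stac3 minus Cacna1s was higher after insulin by 0.34 with no overlap (SDs of 0.11 and 0.16, n = 3), at the smallest exact permutation p of 0.1. Stac3 did pass as lower in 3 of 17 alternatives: array weights in the fit (-0.28, limma adjusted p = 0.0152), the mean of its probe sets (-0.22, adjusted p = 0.0151) and the brighter 6 of its 12 (-0.33, adjusted p = 0.0193).

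Trdn, the gene of triadin, stood apart at the level of the gene. Its values were 8.28, 8.44 and 8.50 in controls and 8.56, 8.40 and 8.27 after insulin, and the groups overlapped fully. The change was 0.0028 ± 0.095 (SE; limma adjusted p = 0.989), with a 95% interval from -0.22 to 0.22. Trdn minus Ryr1 moved by 0.50, but the control SD was 0.42 and the groups overlapped (n = 3, exact permutation p = 0.2).

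**Figure D2:**
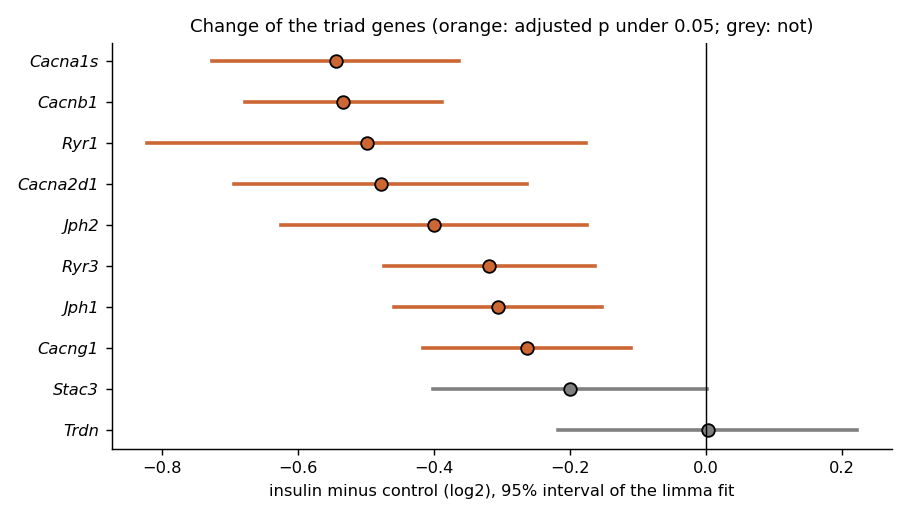
Change of each triad gene, insulin minus control on the log2 scale (horizontal axis), with the 95% interval of the limma fit (n = 3 each); orange marks an adjusted p under 0.05. The 8 orange genes lie between -0.54 and -0.26, Stac3 at -0.20 and Trdn at 0.0028.

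The array measures each gene by several probe sets along its transcript, so the same contrast can be read below the level of the gene. Of the 373 probe sets, 323 passed the filter on dim signals (a mean of at least 7.57 over the 6 arrays). Of these, 312 had a change below 0 and 11 above it, while 50.9% of all tested probe sets were below 0. In the fit over all probe sets 57 (17.6%) passed limma's test as lower, against 1.71% of all 148468 tested, and 1 as higher, against 3.95%. The count of lower triad probe sets was 75 without control 3, 12 without control 1, 1 without insulin 2, and 0 without control 2, insulin 1 or insulin 3. The share of all probe sets called lower was not computed for those fits. Probe sets of a gene share its transcript and its arrays and are no replicates of each other.

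Every tested probe set of Ryr1 (101), Cacna1s (47), Cacna2d1 (38), Cacnb1 (17), Stac3 (12), Jph2 (7), Jph1 (6) and Cacng1 (4) had a change below 0. Cacna1s was the most even of the long genes: 34 of its 47 probe sets passed as lower, and the central span of its changes, from the 25th to the 75th percentile, was -0.61 to -0.47. For Cacnb1 11 of 17 passed. For Ryr1 only 5 of 101 passed. None of the probe sets of Cacng1, Jph2 or Stac3 passed by itself, and 1 of Jph1 did.

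**Figure D3:**
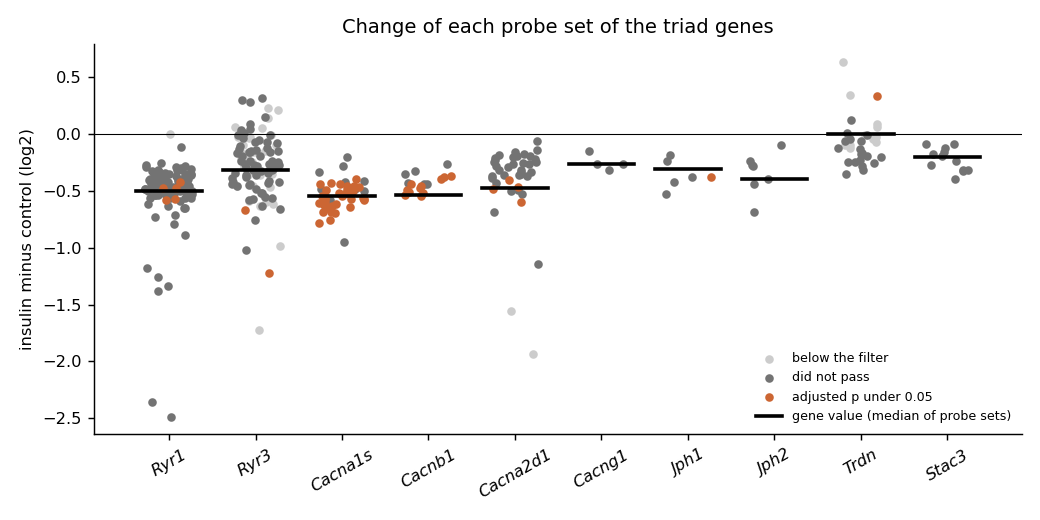
Each dot is a probe set of a triad gene, placed by its change after insulin on the log2 scale (vertical axis); light grey dots lie below the filter, dark grey dots did not pass and orange dots did, and black bars mark the gene's value. The tested dots of most genes lie below 0, while those of Ryr3 and Trdn reach above it. Of all 102 Ryr1 dots, with those below the filter, 101 lie below 0.

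Trdn looked different by probe set than by gene. Of its 31 probe sets 11 lay below the filter on dim signals, and 17 of the 20 tested were lower after insulin, with a median of -0.17. The lowest, probe set 10362406, read 11.81, 11.84 and 11.71 in controls and 11.48, 11.46 and 11.37 after insulin, a change of -0.35 that missed the threshold narrowly (limma adjusted p = 0.0579). Probe set 10362412 went the other way, from 7.71, 7.77 and 7.78 to 8.08, 8.09 and 8.11, and was the one triad probe set that passed as higher (0.34, limma adjusted p = 0.0473). That call was lost without any 1 of the 6 arrays.

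The gene's value is the median of its probe sets on each array, and for Trdn it fell among probe sets of low signal. With the tested probe sets alone, an alternative added after seeing the data, Trdn was at -0.25 (limma adjusted p = 0.0878). With the brighter part of its probe sets it was at -0.20 (adjusted p = 0.0714) and with the brightest one at -0.25 (adjusted p = 0.185). Thus the value near 0 depended on how probe sets were combined, while Trdn passed in none of the alternatives. Triadin transcripts of different length are known in muscle, and which transcripts or exons these probe sets read is not given in the sources used here.

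Ryr3 was the other gene with tested probe sets on both sides. Of its 107 probe sets 71 were tested, of which 63 were lower and 8 higher. Probe set 10485941 changed most, from 8.71, 8.71 and 8.80 in controls to 7.77, 7.00 and 7.79 after insulin. It changed by -1.22 (limma adjusted p = 0.0277), with 0.92 between the groups. Probe set 10485900 lay at the other end with 0.31 (limma adjusted p = 0.168). The brightest Ryr3 probe set alone put the gene at 0.086 (adjusted p = 0.809).

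Whether probe sets of a gene changed by different amounts was tested with limma's diffSplice over all genes. None of the 10 triad genes passed its F test after adjustment, against 3.42% of all genes. At an unadjusted p under 0.05 there were 2, Ryr3 (limma diffSplice adjusted p = 0.292) and Jph2 (adjusted p = 0.397). Ryr1 passed the F test without control 2 (adjusted p = 0.000928) or insulin 1 (adjusted p = 0.0114). Against the other probe sets of their gene, 4 of 323 passed: 10485941 of Ryr3 (adjusted p = 0.00998), 10519853 of Cacna2d1 (adjusted p = 0.0103) and a pair from Ryr1. Over all probe sets the share was 0.777%, so the count of 4 is no result about the triad genes. On simulated data the F test of diffSplice made more false calls than its threshold allows.

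The Cacna2d1 probe set read 12.38, 11.98 and 12.53 in controls and 11.79, 10.67 and 11.00 after insulin, so the groups did not overlap. Its own change of -1.14 ± 0.29 (SE) did not pass (limma adjusted p = 0.0726). The Ryr1 pair was erratic within groups. Probe set 10561569 ran from 6.30 to 10.89 in controls and from 4.27 to 8.64 after insulin, and its own change of -2.49 ± 1.52 (SE) did not pass (limma adjusted p = 0.384). Probe set 10561563 ran from 6.77 to 10.29 in controls and from 4.73 to 10.01 after insulin, and its change of -2.35 did not pass (limma adjusted p = 0.422).

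**Figure D4:**
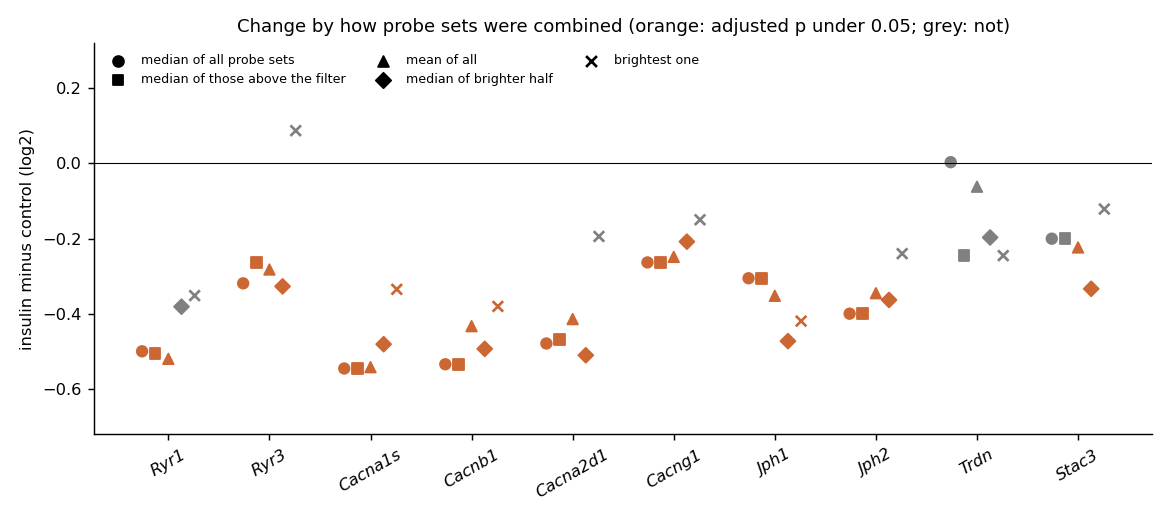
Change of each triad gene on the log2 scale (vertical axis) when its probe sets are combined in 5 ways, shown by marker shape; orange marks a limma adjusted p under 0.05 and grey none. Cacna1s, Cacnb1 and Jph1 are orange throughout, and Ryr3 is above 0 with its brightest probe set only.

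RefSeq promoters were at hand for 5 of the 10 genes, with 7 start sites: Ryr1, Cacna1s, Cacnb1, Cacna2d1 and Jph2, all of which were lower. The 250 bases before each start were searched on both strands for the E-box CANNTG, which myogenic helix-loop-helix factors bind, and for its forms CAGCTG and CACCTG. The TEAD motif CATTCC, the MEF2 box and the CArG box of serum response factor were searched too. CAGCTG and CACCTG are also counted as CANNTG. Cacna1s held CAGCTG with CATTCC beside it, on the reverse strand, and 1 further E-box. Both starts of Jph2 held CAGCTG close to the start. The second start of Cacnb1 held an E-box only, and the windows of Ryr1, Cacna2d1 and the other Cacnb1 start held none of the motifs.

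Over all 32851 promoter windows of this length, 66.2% held CANNTG, 13% CAGCTG, 17.2% CACCTG, 12.6% CATTCC, 2.92% a MEF2 box and 1.47% a CArG box. Cacna1s, Jph2 and Ryr1 are printed because they show the range, from an E-box with a neighbouring TEAD motif through an E-box at the start to neither. They are from RefSeq on GRCm38.p6, at chr1:136052561-136052810 (plus strand), chr2:163397994-163398243 (minus strand, the first listed start) and chr7:29125152-29125401 (minus strand). Capitals mark CAGCTG and CATTCC, the latter read on the other strand.
Cacna1s: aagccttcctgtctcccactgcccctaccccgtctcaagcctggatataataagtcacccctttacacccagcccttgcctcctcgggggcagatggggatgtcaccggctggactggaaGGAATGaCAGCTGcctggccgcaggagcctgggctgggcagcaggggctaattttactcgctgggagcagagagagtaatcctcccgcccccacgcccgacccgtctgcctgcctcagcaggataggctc
Jph2: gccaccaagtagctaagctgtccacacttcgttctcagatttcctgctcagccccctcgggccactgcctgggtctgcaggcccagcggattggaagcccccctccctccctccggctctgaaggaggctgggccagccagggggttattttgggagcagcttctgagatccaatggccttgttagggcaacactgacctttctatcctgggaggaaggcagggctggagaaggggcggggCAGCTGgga
Ryr1: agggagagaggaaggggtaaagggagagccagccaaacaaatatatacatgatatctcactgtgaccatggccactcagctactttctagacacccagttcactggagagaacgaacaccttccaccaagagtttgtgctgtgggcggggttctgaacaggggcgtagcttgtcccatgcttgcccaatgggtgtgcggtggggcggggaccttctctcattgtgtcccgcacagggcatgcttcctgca
The Cacna1s window held CAGCTG at 123 to 118 bases before the start and the TEAD motif at 130 to 125 bases. In Jph2 CAGCTG ended 4 bases before the start. A match is no evidence of binding, and Ryr1, without any of these letters in its window, was lower too.

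Around the triad genes, 81 other genes of the pathway were listed in 5 groups, of which 73 were on the array and 59 were tested. Of these 16 (27.1%) were lower, 2 (3.39%) were higher and 41 did not pass limma's test, with a median of -0.12. Of all tested genes, 6.35% were lower and 9.56% higher. The lower coupling genes numbered 5 without control 2, 7 without insulin 1 or insulin 2 and 6 without insulin 3. Of all genes, 2.67% to 3.23% were lower in these fits. The higher coupling genes numbered 1 without insulin 1, insulin 2 or insulin 3, where 4.64% to 5.64% of all genes were higher. Relatives of the triad genes from the same families mostly did not pass: of 12 tested, Cacnb3 was lower (-0.36, limma adjusted p = 0.0119) and 11 did not pass. Cacnb3, a beta subunit best known from other tissues, had a control mean of 11.53 on these arrays. Stac2 lay at 0.14 (limma adjusted p = 0.208). Cacna1c and Cacna1d, the pore subunits of heart and neurons, were too dim to be tested.

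In the sarcoplasmic reticulum and its junction 5 of 20 tested genes (25%) were lower and 1 (5%) higher, with a median of -0.13. Among all tested genes these shares were 6.35% and 9.56%. Jsrp1, whose protein JP-45 links the voltage sensor to calsequestrin, fell by 0.37 and Srl (sarcalumenin, a store protein) by 0.27. Tmem38a and Tmem38b, the TRIC channels that let counter-ions pass during release, fell by 0.25 and 0.45. S100a1, a calcium-binding modulator of the release channel, fell by 0.29. The calsequestrins Casq1 (-0.15) and Casq2 (-0.16) and the main calcium pump Atp2a1 (-0.21) did not pass (limma adjusted p = 0.173, 0.132 and 0.0567).

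Atp2a3 ran counter to this group. It encodes SERCA3, a calcium pump best known from non-muscle cells. Its values were 8.14, 7.95 and 8.01 in controls and 9.66, 9.51 and 9.66 after insulin. It rose by 1.58 ± 0.08 (SE; limma adjusted p = 4.29e-05), or 2.98-fold, with every insulin array well above every control.

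Of 12 genes of tubule formation and membrane caveolae 4 (33.3%) were lower and 1 (8.33%) higher, with a median of -0.15. Among all tested genes these shares were 6.35% and 9.56%. Tcap, a titin cap protein also placed at the tubule, fell by 0.70, Cav3 (caveolin 3) by 0.55, Dysf (dysferlin, of membrane repair) by 0.37 and Cavin4 (annotated as Murc) by 0.24. Mtm1, the myotubularin lipid phosphatase needed for triad structure, rose by 0.52 ± 0.13 (SE; limma adjusted p = 0.0273). Bin1, the amphiphysin that curves the tubule membrane, was at -0.11 and did not pass (limma adjusted p = 0.292).

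Of the 7 tested genes of store-operated entry, Stim1, the store's calcium sensor, fell by 0.34 (limma adjusted p = 0.0137), while its partner channel Orai1 lay at -0.16 (adjusted p = 0.242). Surface excitation genes counted 5 falls among 8 tested (62.5%, against 6.35% of all tested genes) and a median of -0.32. Scn4a, the muscle sodium channel, fell by 0.54 ± 0.09 (SE), the acetylcholine receptor genes Chrnd, Chrnb1 and Chrng by 0.46, 0.39 and 0.31, and the synaptic kinase gene Musk by 0.30. The receptor genes Chrna1 (-0.11) and Chrne (-0.080) did not pass (limma adjusted p = 0.305 and 0.556). For scale, 4 of 12 troponin and tropomyosin genes (33.3%) were lower, with a median of -0.24, and Tpm3 fell by 0.53. Set beside these, 8 of 10 triad genes were lower with a median of -0.36; the difference between the lists was not tested.

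**Figure D5:**
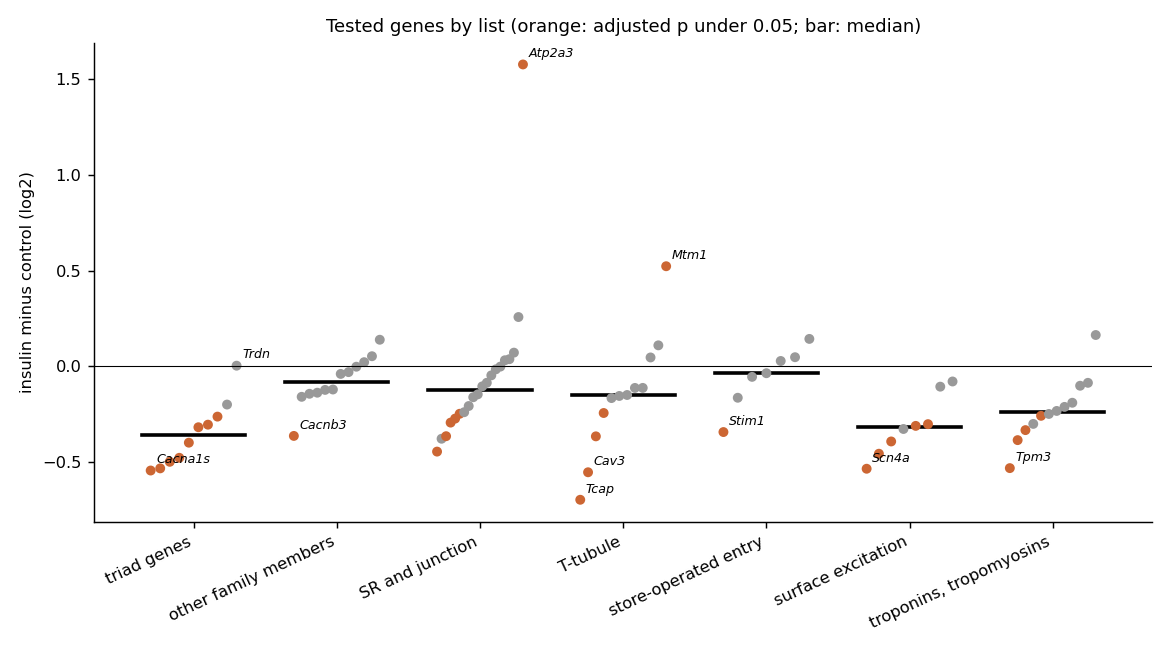
Each dot is a tested gene, placed by its change after insulin on the log2 scale (vertical axis) within its list; orange marks a limma adjusted p under 0.05 and bars mark list medians. The triad genes have the lowest median, -0.36, and Atp2a3 and Mtm1 are the only orange dots above 0.

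Markers of cell state were read too. Among all tested genes 6.35% were lower and 9.56% higher. All 13 myotube markers passed the filter on dim signals. Of these, 4 were lower after insulin, none was higher and 9 did not pass (median -0.25). Their mean log2 level ran from 12.17 to 12.41 on control arrays and from 12.00 to 12.05 after insulin. All 5 measured genes of cycling cells rose (median 0.66), and their mean level ran from 10.87 to 10.90 in controls and from 11.48 to 11.54 after insulin. Of 9 myoblast markers 2 rose, 2 fell and 5 did not pass, with mean levels from 10.22 to 10.31 and from 10.08 to 10.17. The part of these markers in the fall of the triad genes was not tested.

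Among markers of other cell types, only fibroblast markers had a mean level lower on every insulin array than on every control. Their median change was -0.19, with 4 of 5 tested below 0. Mean levels here cover all markers of a type on the array, tested or not. Of 5 tested fibroblast markers Dcn fell and 4 did not pass, with Lum below the filter, and mean levels ran from 9.93 to 10.01 in controls and from 9.71 to 9.81 after insulin. Among adipocyte markers Pparg rose, while Adipoq (mean 5.36), Lep (6.46) and Fabp4 (5.44) lay below the filter on dim genes. Levels over all 6 adipocyte markers ran from 6.90 to 7.17 in controls and from 7.01 to 7.15 after insulin. Of 4 tested osteoblast markers none passed limma's test (levels 7.60 to 7.77 and 7.71 to 7.80). Nppb rose among 4 cardiomyocyte markers (levels 7.94 to 8.06 and 7.97 to 8.10), and Cnn1 fell among 4 smooth muscle markers (levels 9.77 to 10.03 and 9.78 to 9.83). RMA values have no true zero and no detection calls were used here, so none of these genes could be called absent.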

How the data were processed

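The table the authors deposited holds log2 values for every probe set on 6 arrays, from RMA per the submitters' processing notes (version not stated). The log base, not stated, was taken as 2 because values ran from 3.15 to 14.6. Array medians lay between 8.79 and 8.82. Signal over background, scan dates and genome build were not used here, and precision is limited by the number of arrays. No source used here names batches, so a batch that followed the groups cannot be told apart from insulin.

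A gene's value was the median of its probe sets with exactly 1 symbol (212097 of 241576 probe sets; 4475 had several symbols and 25004 none). Genes or probe sets with a mean under the 30th percentile (7.05 for genes, 7.57 for probe sets) were left out. The contrast of insulin with control came from limma 3.58.1 (lmFit, eBayes, two-sided, no covariates; R 4.3.3), with p-values adjusted by Benjamini-Hochberg over all tested features at 0.05. diffSplice used the probe set fit, and pairs of genes were compared by exact permutation over arrays. Scripts were tested on simulated data, where diffSplice made more false calls than its threshold allows and the gene fit missed most small changes.

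The triad genes, gene lists and named genes were chosen with earlier results of these data known. All 10 triad genes are named, with their probe sets of lowest and highest change or those that stand apart, and from each list genes of smallest p or genes that passed. Other examples were chosen after their values were seen. Alternatives covered a replicate block, 2 scalings, 2 filters, variance settings, 4 ways to combine probe sets, and leaving out each array.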

Additional observations from a re-analysis of the deposited data

How the results depend on the processing

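Cacna1s and Cacnb1 kept a limma adjusted p under 0.05 as lower in all 17 alternatives. The count of triad genes lower stayed within 1.5 times of 8 under both scalings, the 50th percentile filter and both variance settings. It also did so with 3 of the 4 ways to combine probe sets. Of all genes, 6.78% to 16.8% were lower in these alternatives. Under the 50th percentile filter Ryr3 was too dim to be tested, and 7 of 9 triad genes were lower, against 10.1% of all genes. The count was 5 with no filter (Ryr1, Cacng1 and Jph2 lost). It was 3 with the brightest probe set (Cacna1s, Cacnb1 and Jph1 kept), where the median change was -0.24 and Ryr3 lay at 0.086. Leaving out 1 array gave 3 to 8 lower triad genes: 6 without control 1, 8 without control 3, 4 without control 2, insulin 1 or insulin 3, and 3 without insulin 2 (Cacna1s, Cacnb1 and Cacna2d1). Of all genes, 2.67% (without insulin 2) to 6.78% (without control 3) were lower in these fits. The median change of the triad genes ran from -0.41 to -0.30 without 1 array. No triad gene was higher under any alternative run with limma, at an adjusted p.

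Triad probe sets called lower depended most on the settings: 6 with no filter, 112 with an intensity trend and robust prior, 197 with array weights, and 0 to 75 without 1 array (12 without control 1, 1 without insulin 2, and 0 without control 2, insulin 1 or insulin 3). The share of all probe sets called was not computed for these alternatives, so the counts say nothing particular to the triad. The probe set called higher was lost (0) after centring, with no filter, with the 50th percentile filter, with the trend and without any 1 array (0 to 0), and there were 2 with array weights. Unequal change among probe sets was called for 0 to 1 triad genes without 1 array, Ryr1 without control 2 or insulin 1. Other coupling genes counted 26 lower and 4 higher with array weights, 8 lower and 1 higher with the brightest probe set, and 1 higher with the 50th percentile filter. Of all genes, 16.8% were lower and 18.2% higher with array weights, and 4.30% and 6.42% with the brightest probe set. With the 50th percentile filter 14.3% were higher. Without 1 array the other coupling genes counted 5 to 15 lower and 1 to 3 higher, with 5 lower without control 2, 7 without insulin 1 or insulin 2 and 6 without insulin 3. Of all genes, 2.67% to 6.78% were lower and 4.64% to 10.4% higher without 1 array.

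With the replicate number as a block, 6 triad genes were lower (Ryr1, adjusted p = 0.0616, and Cacng1, 0.0670, lost in limma), 8 triad probe sets were lower and 0 higher, and 1 other coupling gene was higher. Of all genes, 5.33% were lower and 8.46% higher with the block. Deviations of same-numbered arrays correlated by 0.025, 0.19 and -0.00036, and not every array correlated best with its own number, so the numbers were not taken to pair the samples. Between members, Cacnb1 minus Cacna1s was higher after insulin by 0.11 with the mean of probe sets, against 0.011 in the main setting. With the brightest probe set Ryr3 minus Ryr1 grew from 0.18 to 0.44. Jph2 minus Jph1 changed sign there, from -0.094 to 0.18. Cacng1 minus Cacna1s shrank from 0.28 to 0.18 and Trdn minus Ryr1 from 0.50 to 0.11. With the brighter part of probe sets Jph2 minus Jph1 changed sign too, to 0.11, and Stac3 minus Cacna1s shrank from 0.34 to 0.15. The causes of these shifts were not tested.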

Other observations

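Among the 14 other coupling genes too dim to be tested, 4 had insulin and control arrays that did not overlap. Of all tested genes, 15.7% had every insulin array below every control and 20% had every insulin array above. The count of 4 is therefore no result about these genes. Cacng5, a gamma subunit of the family that includes neuronal receptor partners, differed by -0.50 and the alpha2-delta gene Cacna2d3 by -0.33. The inward rectifier channel gene Kcnj2 differed by -0.33 and the beta subunit gene Cacnb4 by 0.22. These are differences of RMA values near the low end of the scale, given without a test.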
